A study of Mus musculus with 10 samples.

Results

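The 7 mitochondrially encoded subunits of respiratory complex I, mt-Nd1, mt-Nd2, mt-Nd3, mt-Nd4, mt-Nd4l, mt-Nd5 and mt-Nd6, were followed through every input RNA and ribosome footprint library of the series. They were taken by symbol, and all 7 of the 21934 symbols listed were found in both tables. Ribosome profiling sequences the mRNA stretches that ribosomes shield from nuclease (footprints), and the matched input library measures the mRNA itself. The sgWdr4-1 and sgWdr4-2 libraries came from immortalized bone marrow-derived macrophage (iBMDM) lines of monoclonal origin, given by lentivirus a guide RNA against Wdr4 and selected with puromycin. The WT iBMDM line was their control. The cKO libraries came from tumour-associated macrophages (TAM) of mice with a myeloid-specific Wdr4 knockout, and the ff libraries from TAM of Wdr4 ff mice, in both cases sorted as F4/80+ cells from orthotopic liver tumours grown from Hepa1-6 cells. The sources used here do not give the Cre driver, the number and age of the mice or any pooling. Each of the 5 conditions was represented by 1 footprint library and 1 library of poly(A)-selected input.

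Complex I carries electrons from NADH to ubiquinone and pumps protons across the inner mitochondrial membrane. Its membrane core is made inside the organelle from mitochondrial DNA by mitochondrial ribosomes, and its other subunits are made in the cytosol and imported. ND2, ND4 and ND5 are the antiporter-like, proton-pumping subunits, ND1 and ND3 lie at the ubiquinone site, and ND4L and ND6 are small membrane subunits between those parts. The heavy strand encodes all but mt-Nd6, mt-Nd4l and mt-Nd4 share a bicistronic mRNA with overlapping reading frames, and in human cells the ND6 mRNA is known to lack a poly(A) tail. In the mouse RefSeq annotation (GRCm38.p6) mt-Nd1 is followed by mt-Nd2, and mt-Nd3, mt-Nd4l, mt-Nd4, mt-Nd5 and mt-Nd6 follow each other among the coding genes.

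Levels are in TPM, which divides reads by gene length and sets each library's sum to 1000000, so genes can be compared with each other. How many reads stand behind a TPM value, and its counting error, are unknown, and a large change in some genes shifts the share left for the rest. Wdr4, the targeted gene and the partner of the tRNA methyltransferase Mettl1, was at 31.3 TPM (sgWdr4-1) and 44.5 TPM (sgWdr4-2) in input, against 44.6 TPM in WT, and at 20.9 TPM in cKO, against 39.8 TPM in ff. Its footprints were higher in the targeted libraries, at 24.3 and 26.9 TPM against 13.3 TPM in WT, and at 17.7 TPM in cKO against 8.51 TPM in ff. Groups are therefore named by their labels throughout. Of 18 macrophage markers, 15 were under 1 TPM in every input library. Adgre1 (the F4/80 gene) and Aif1 had 0 TPM throughout the 10 libraries. Cd14 alone of that list reached 5 TPM in every input, with 13.8 to 19.8 TPM. Of 12 fibroblast and stellate markers, 6 reached 5 TPM in every input and 6 were under 1 TPM in every input. Acta2 had the highest input of those 12, with 2400 to 3790 TPM. The summed input level of the macrophage list was 17.7 and 20.3 TPM under the guides, 20.4 TPM in WT, 19.7 TPM in cKO and 23.9 TPM in ff. The fibroblast list summed to 4230 and 3650 TPM under the guides, 3580 TPM in WT, 5250 TPM in cKO and 3590 TPM in ff. In footprints the fibroblast list summed to 7320 and 4110 TPM under the guides, 5440 TPM in WT, 3650 TPM in cKO and 5130 TPM in ff. Of 8 hepatocyte markers, 6 were under 1 TPM in every input, and the list summed to 139 and 108 TPM under the guides, 114 TPM in WT, 166 TPM in cKO and 98.1 TPM in ff. In footprints the hepatocyte list summed to 6.77 and 18.4 TPM under the guides, against 62.0 TPM in WT. It summed to 20.6 TPM in cKO, against 34.4 TPM in ff. Footprints of the list were thus lower under the guides, as complex I footprints were. They were also lower in cKO, where most complex I footprints were higher. In input the list was higher than its control in sgWdr4-1 and cKO, and lower in sgWdr4-2. Apoa2 made up most of each footprint sum, with 5.06 and 17.7 TPM under the guides, 57.7 TPM in WT, 19.6 TPM in cKO and 30.4 TPM in ff. The part of these lists in the results below was not tested.

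Before any complex I gene was considered, the sgWdr4-1 footprint library stood further apart from WT than that of sgWdr4-2. Over 7523 nuclear genes its footprints scattered around WT with a robust SD of 0.91 on the log2 scale, and those of sgWdr4-2 with 0.52. Input of sgWdr4-1 was also further from WT, with a robust SD of 0.23 against 0.1 for sgWdr4-2. Results that rest on the sgWdr4-1 footprint library are given with and without it.

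In input RNA the complex I genes fell into 4 levels that did not overlap across the 5 libraries. mt-Nd1 was the most abundant, at 5879 (sgWdr4-1), 6941 (sgWdr4-2), 7181 (WT), 6223 (cKO) and 7999 TPM (ff). mt-Nd3 (2699 to 4199 TPM), mt-Nd2 (2383 to 3245 TPM) and mt-Nd4 (2469 to 3216 TPM) came next and overlapped each other. mt-Nd5 lay below them at 1678 to 2077 TPM. mt-Nd4l and mt-Nd6 were the least abundant and overlapped. mt-Nd4l had 898 TPM in sgWdr4-1, 1015 TPM in sgWdr4-2, 1381 TPM in WT, 1357 TPM in cKO and 1103 TPM in ff. mt-Nd6 had 866, 961, 1120.0, 1245 and 1294 TPM in the same order of conditions. The 7 together took 1.71% of the input TPM in sgWdr4-1, 1.92% in sgWdr4-2, 2.09% in WT, 2.02% in cKO and 2.28% in ff. The bicistronic partners did not read out at the same level, with mt-Nd4l at 0.334 to 0.527 times the input TPM of mt-Nd4.

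**Figure D1:**
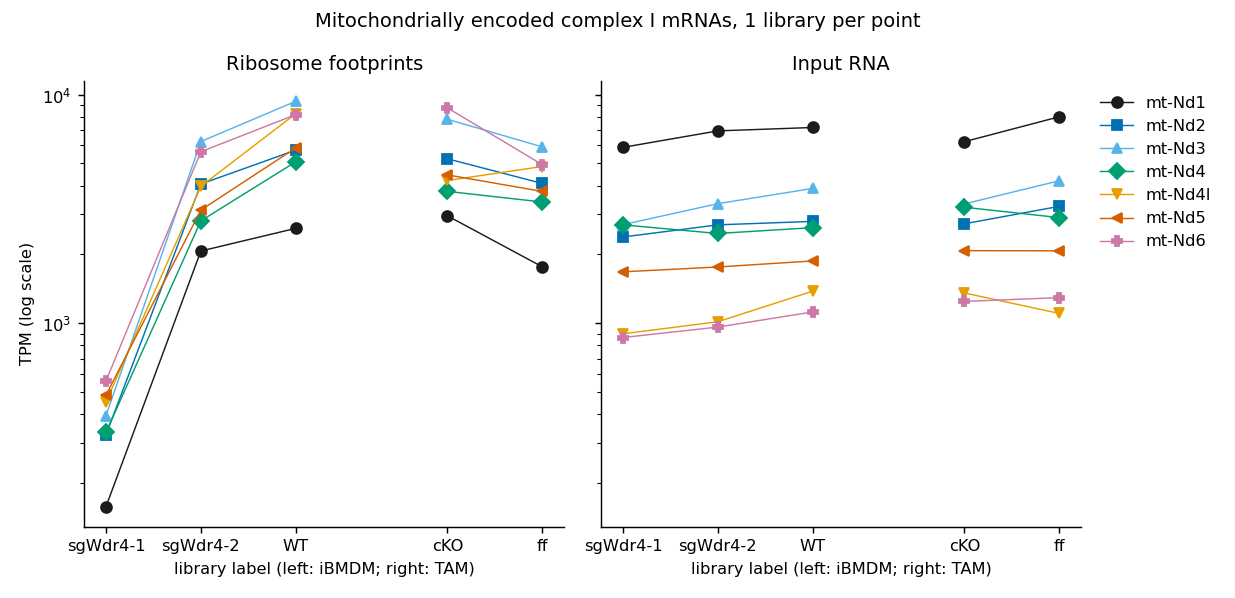
TPM of the 7 complex I mRNAs (log scale) in footprint and input libraries, 1 library per point, with lines joining a gene's libraries within a table. All 7 footprint values of sgWdr4-1 lie between 158 and 559.8 TPM, below every other footprint library, whose lowest value is 1765 TPM, while the input values lie between 866 and 7999 TPM.

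Footprints gave another order. mt-Nd1, highest of the 7 in every input library, was the lowest of the 7 in every footprint library, with 158 TPM in sgWdr4-1, 2069 TPM in sgWdr4-2, 2600.0 TPM in WT, 2949.7 TPM in cKO and 1765 TPM in ff. mt-Nd6, the light-strand gene, had 559.8 TPM in sgWdr4-1, 5625 TPM in sgWdr4-2, 8179 TPM in WT, 8749 TPM in cKO and 4940.1 TPM in ff. mt-Nd6 was the highest of the 7 in sgWdr4-1 and cKO, and mt-Nd3 was the highest in sgWdr4-2 (6234 TPM), WT (9351 TPM) and ff (5909 TPM). mt-Nd3 had 394 TPM in sgWdr4-1 and 7802 TPM in cKO. mt-Nd4l footprints were 1.12 to 1.62 times those of mt-Nd4, the reverse of their order in input. Left without sgWdr4-1, the highest footprint value of a gene was 1.41 times (mt-Nd2) to 2.08 times (mt-Nd4l) its lowest.

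Translation efficiency, log2(footprint TPM + 1) minus log2(input TPM + 1), ranked the 7 genes almost alike in every condition. mt-Nd6 was highest at -0.63 in sgWdr4-1, 2.55 in sgWdr4-2, 2.87 in WT and 2.81 in cKO, and second at 1.93 in ff. mt-Nd4l was second in those 4 conditions and highest in ff, with -0.99 in sgWdr4-1, 1.97 in sgWdr4-2, 2.58 in WT, 1.63 in cKO and 2.13 in ff. mt-Nd1 was lowest throughout, at -5.21, -1.75, -1.47, -1.08 and -2.18 in the same order, with mt-Nd4 and then mt-Nd2 next above it in each condition. The sgWdr4-1 order was that of WT, and Spearman's rho between conditions ran from 0.93 to 1.0 over these 7 genes, which share gene models and mapping and are not replicates. The distance from the lowest to the highest gene was 4.58 in sgWdr4-1, 4.29 in sgWdr4-2, 4.33 in WT, 3.89 in cKO and 4.31 in ff. Because input was poly(A)-selected, an mRNA with little or no poly(A) tail can read low in input and high in translation efficiency. Whether this raised the values of mt-Nd6 was not tested.

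**Figure D2:**
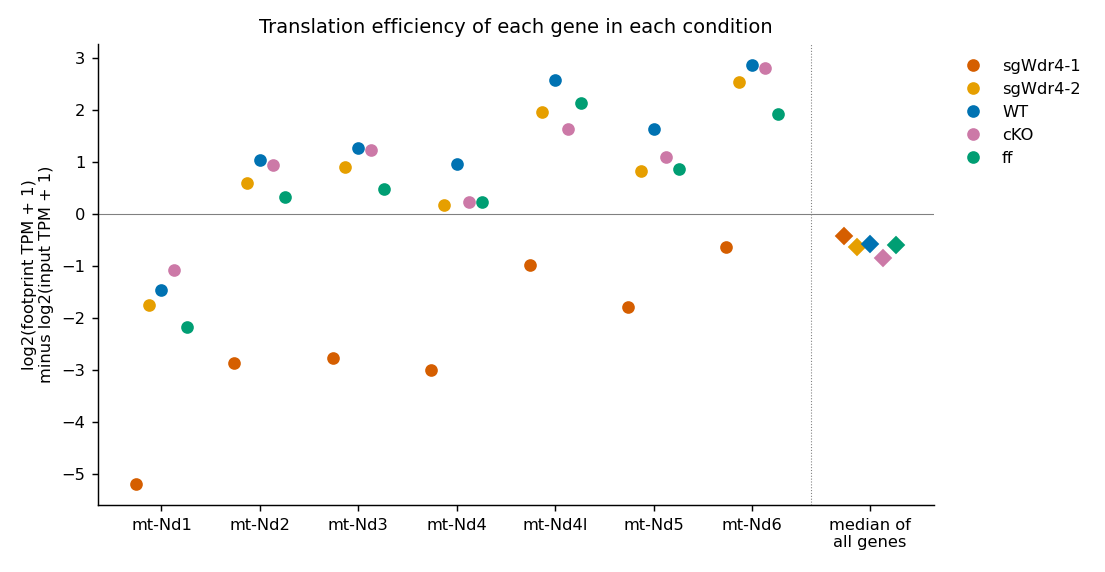
Translation efficiency on the log2 scale for each complex I gene, 1 point per condition, with the median of all genes tested at the right. mt-Nd1 is the lowest gene in each of the 5 conditions and mt-Nd6 or mt-Nd4l the highest, and the sgWdr4-1 points lie below those of every other condition for all 7 genes.

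Set among all genes tested, 6 of the 7 members lay above the median translation efficiency in sgWdr4-2, WT, cKO and ff, mt-Nd1 being the one below. In sgWdr4-1 all 7 lay below it. Among the genes tested mt-Nd6 stood at percentile 42.3 in sgWdr4-1, 99.3 in sgWdr4-2, 99.7 in WT, 99.4 in cKO and 97.0 in ff, and mt-Nd1 at 0.133, 15.5, 21.5, 43.2 and 8.18. The limit set by poly(A)-selected input applies to these percentiles too. The median of the 7 was -2.77 in sgWdr4-1, 0.83 in sgWdr4-2, 1.27 in WT, 1.10 in cKO and 0.49 in ff, where the median of all genes was -0.43, -0.63, -0.58, -0.85 and -0.59. The nuclear-encoded complex I subunits had medians of 0.60, 0.69, 0.67, 0.74 and 0.86 in the same order.

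Footprints of all 7 genes were at 4.23% to 8.32% of WT in sgWdr4-1. The proton-pumping subunit mt-Nd5 had 485 TPM in sgWdr4-1 and 5843 TPM in WT, 12-fold lower in sgWdr4-1 and the smallest difference of the 7. mt-Nd3 had 394 TPM in sgWdr4-1 and 9351 TPM in WT, 23.7-fold lower and the largest. Differences in footprints ran from -4.56 (mt-Nd3) to -3.59 (mt-Nd5) on the log2 scale, and the median gene of the whole table was at 0.09. The small subunits mt-Nd4l (453 TPM in sgWdr4-1 and 8248 TPM in WT) and mt-Nd6 (559.8 and 8179 TPM) were 18.2-fold and 14.6-fold lower. mt-Nd1 (158 TPM in sgWdr4-1 and 2600.0 TPM in WT) was 16.4-fold lower. The antiporter-like mt-Nd2 (325 and 5717 TPM) and mt-Nd4 (334 and 5081 TPM) were 17.5-fold and 15.2-fold lower, so every sgWdr4-1 value lay far below its WT value. The 2-fold mark was passed by 7 of 7 members on the lower side in footprints, where 10.3% of all 7536 genes were, and by 7 of 7 in translation efficiency (-4.04 to -3.43), where 13.7% were.

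Input RNA of the same genes differed by less in sgWdr4-1. mt-Nd4l was at 898 TPM in sgWdr4-1 and 1381 TPM in WT (-0.62 on the log2 scale), mt-Nd3 at 2699 and 3887 TPM (-0.53), and mt-Nd4 at 2693 and 2618 TPM (0.04). The other 4 genes lay between -0.37 and -0.16. No member was 2-fold apart in input, where 0.398% of all genes were.

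In sgWdr4-2, set against the same WT libraries, complex I footprints lay below WT by less. Footprints of the antiporter-like subunits were 4062 TPM in sgWdr4-2 and 5717 TPM in WT for mt-Nd2, 2805 and 5081 TPM for mt-Nd4, and 3126 and 5843 TPM for mt-Nd5. mt-Nd4l had 3969 TPM in sgWdr4-2 and 8248 TPM in WT, 2.08-fold lower. All 7 sgWdr4-2 footprint values lay below WT, at 48.1% (mt-Nd4l) to 79.6% (mt-Nd1) of it. mt-Nd4l alone passed the 2-fold mark (-1.06), where 4.63% of all genes were 2-fold lower, and after median rescaling of the libraries it was at -0.98 and did not. Translation efficiency was lower by 0.28 (mt-Nd1) to 0.81 (mt-Nd5) on the log2 scale, so 0 of 7 passed the mark, where 4.87% of all genes did. Input differences were -0.44 for mt-Nd4l and -0.22 to -0.05 for the others, none past 2-fold, where 0.0663% of all genes were.

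Taking both guides together, 1 of 7 members (mt-Nd4l) was at least 2-fold lower in footprints under each guide, where 1.43% of all genes were, and 0 of 7 in translation efficiency, where 2.04% were. Both guides were set against the same WT libraries. limma on the mean of the guides against WT called 0 of 7 members in footprints, translation efficiency or input after Benjamini-Hochberg adjustment over 7536 genes, where it called 0.0133%, 0.0663% and 0.0% of all genes. Every member was lower under both guides in footprints and in translation efficiency, as were the other mitochondrially encoded mRNAs except mt-Atp6. The share of all genes lower under both guides was not computed. Under sgWdr4-2 the members stood at percentiles 4.1 to 28.5 of the genes tested in footprints and 8.69 to 32.7 in translation efficiency. In footprints the limma estimates ran from -2.62 (mt-Nd4l) to -2.18 (mt-Nd1) with SE of 0.72 to 0.73 and adjusted p of 0.374 or more, and 7 of 7 members had an unadjusted limma p under 0.05, as did 65 genes in all. In translation efficiency the estimates were -2.37 to -1.91 (SE 0.78 to 0.79), with 7 of 7 members among 115 genes at an unadjusted limma p under 0.05. Without pairing each line's footprint and input libraries, 0 of 7 members were, with unadjusted limma p of 0.212 to 0.361. In input, 1 member (mt-Nd4l, -0.53, SE 0.18) was among 55 such genes. The fit had 1 residual degree of freedom, and its SE over all genes ran from 0.72 to 0.89 in footprints and from 0.71 to 0.84 in translation efficiency. The SD between the guides for the members was 1.9 to 2.81 in footprints and 1.85 to 2.6 in translation efficiency, and 0.05 to 0.22 in input. In footprints and translation efficiency the limma SE thus came mostly from all genes, and was below the members' own spread between the guides. The unadjusted limma p does not measure that spread, and the 7 members share the same libraries and are not 7 separate results. The guide mean of the median member was -2.31 in footprints and -2.12 in translation efficiency, against -0.58 and -0.44 for sgWdr4-2 without sgWdr4-1.

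In the TAM table most complex I footprints were higher in cKO than in ff, without a replicate of either. The median footprint change of all genes tested was -0.20 on the log2 scale. Among those genes the members stood at percentiles 49.7 (mt-Nd4l) to 95.4 (mt-Nd6). mt-Nd6 had 8749 TPM in cKO and 4940.1 TPM in ff (0.82 on the log2 scale), and mt-Nd1 had 2949.7 TPM in cKO and 1765 TPM in ff (0.74). These are the light-strand gene and the gene with the lowest translation efficiency of the 7. mt-Nd3 had 7802 TPM in cKO and 5909 TPM in ff (0.40), and mt-Nd2 had 5240.2 TPM in cKO and 4088 TPM in ff (0.36). The antiporter-like mt-Nd5 had 4455 TPM in cKO and 3771 TPM in ff (0.24), and mt-Nd4 had 3773 TPM in cKO and 3391 TPM in ff (0.15). mt-Nd4l went the other way, with 4212 TPM in cKO and 4848 TPM in ff (-0.20), and was at 0.01 after median rescaling. No member was 2-fold higher in footprints, where 2.73% of 7101 genes were, although mt-Nd6 reached 1.04 with that rescaling.

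In translation efficiency, 1 of 7 members passed the 2-fold mark on the higher side, mt-Nd1 (-1.08 in cKO and -2.18 in ff, a difference of 1.10), where 4.03% of all genes were. mt-Nd6 (0.88), mt-Nd3 (0.74), mt-Nd2 (0.61) and mt-Nd5 (0.24) were also above 0, mt-Nd4 was at 0.004 and mt-Nd4l at -0.50. The median gene of the table lay at -0.25, so the median member, at 0.61, was 0.86 above it. Rescaling to the same median put the median gene at 0.04 and brought mt-Nd3 (1.04) and mt-Nd6 (1.18) past 2-fold as well, and rescaling without mitochondrial, ribosomal protein and histone genes brought mt-Nd6 (1.04). In input, mt-Nd1 had 6223 TPM in cKO and 7999 TPM in ff (-0.36), mt-Nd3 was at -0.34 and mt-Nd2 at -0.25. Input of mt-Nd4l (0.30) and mt-Nd4 (0.15), the bicistronic pair, was higher in cKO, and mt-Nd5 and mt-Nd6 were at 0.003 and -0.05. No member was 2-fold apart in input, where 1.59% of all genes were. Fewer cells of a type and less RNA per cell cannot be told apart in these bulk libraries.

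**Figure D3:**
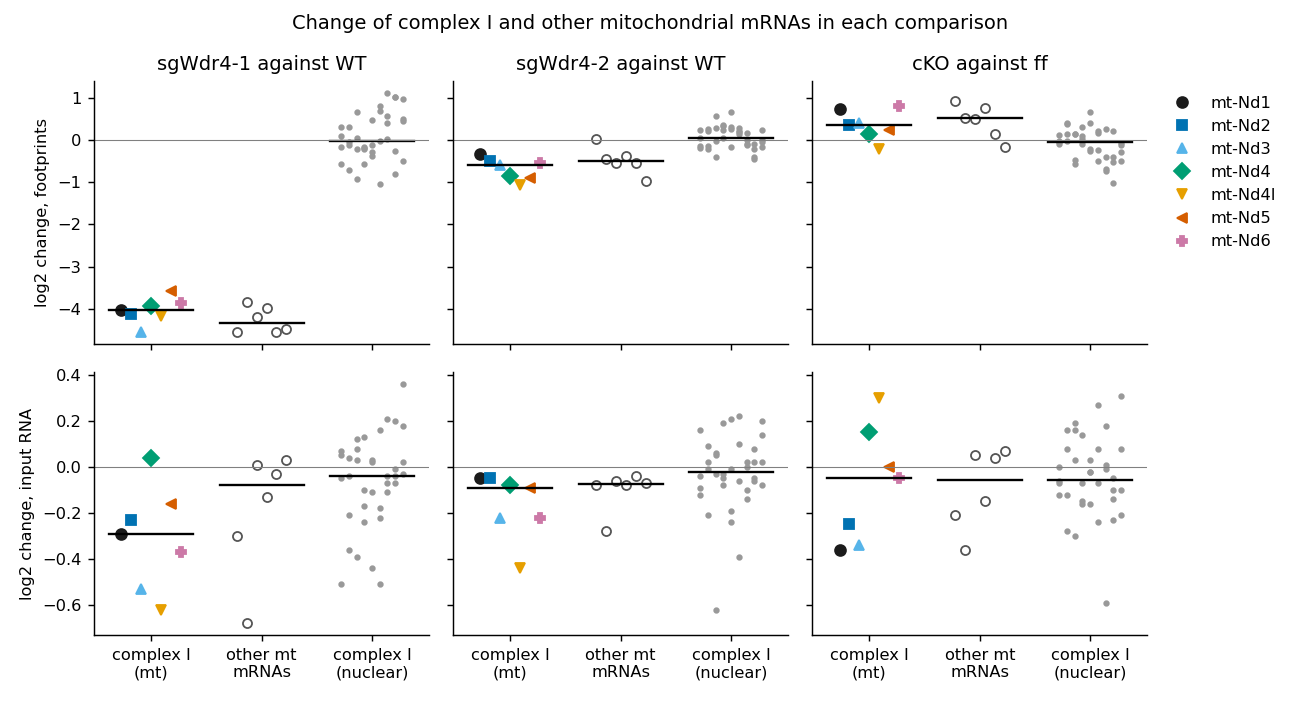
Log2 change of footprints (top) and input RNA (bottom) in each comparison, 1 point per gene, for the 7 mitochondrially encoded complex I genes, the 6 other mitochondrially encoded mRNAs and 36 nuclear-encoded complex I subunits, with a bar at each median. Footprints of both mitochondrially encoded groups sit near -4 in sgWdr4-1, with medians of -4.03 and -4.35, while the nuclear subunits have a median of -0.03.

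The make-up of the complex I pool is described by the share of each gene in it. mt-Nd1 was 30.9% to 36.2% of the summed input TPM of the 7 genes, and 5.78% to 7.93% of their summed footprint TPM. mt-Nd6 was 5.01% to 6.18% of the poly(A)-selected input, under the limit given above, and 17.2% to 23.5% of the footprints. In sgWdr4-1 footprints mt-Nd5 took 17.9%, against 13% in WT, and mt-Nd3 14.6%, against 20.8% in WT. In cKO footprints mt-Nd6 took 23.5%, against 17.2% in ff, and mt-Nd4l 11.3%, against 16.9% in ff.

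**Figure D4:**
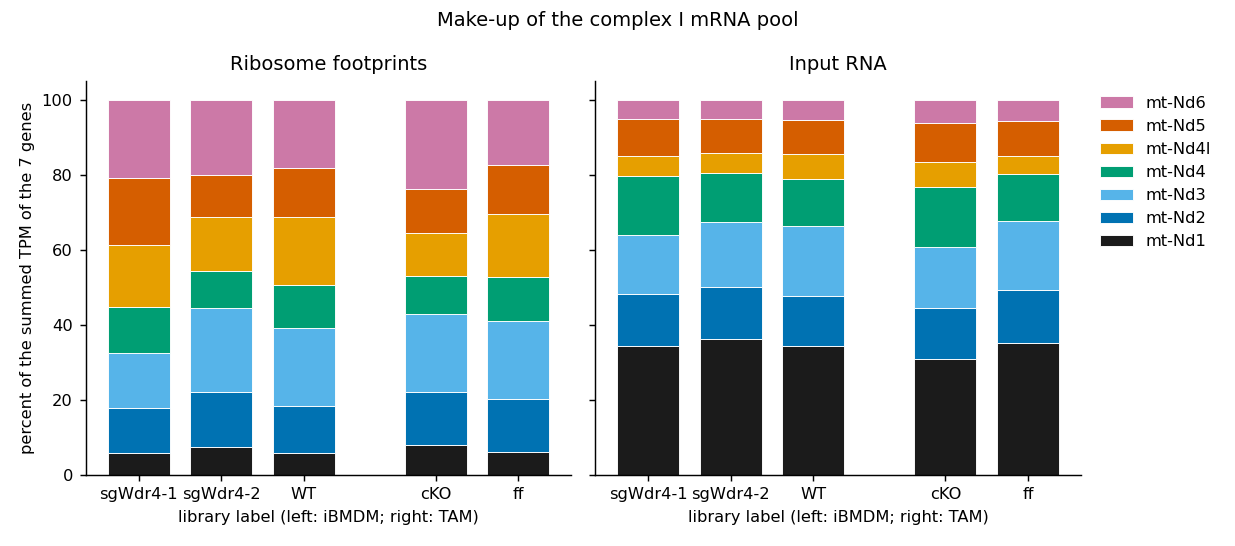
Percent of the summed TPM of the 7 complex I genes taken by each gene, in footprint and input libraries, 1 library per bar. mt-Nd1 takes at least 30.9% of each input bar and at most 7.93% of each footprint bar, and mt-Nd6 takes at least 17.2% of each footprint bar.

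The 6 other mitochondrially encoded mRNAs, mt-Co1, mt-Co2 and mt-Co3 of cytochrome oxidase, mt-Atp6 and mt-Atp8 of ATP synthase and mt-Cytb of complex III, had median changes of the same sign as the complex I genes in footprints in all 3 comparisons, those of the guides resting on the same WT libraries. Their median footprint change was -4.35 in sgWdr4-1, -0.49 in sgWdr4-2 and 0.52 in cKO, and that of the complex I genes was -4.03, -0.58 and 0.36. Complex I genes made up 34.7% of all mitochondrially encoded footprint TPM in sgWdr4-1, 27.0% in sgWdr4-2, 30.8% in WT, 27.3% in cKO and 28.9% in ff. In input their share was 31.7%, 33.9%, 34.7%, 32.9% and 34.8% in the same order.

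The nuclear-encoded subunits that complete complex I lay near the median of all genes. Of 37 listed, 36 were tested, and their median footprint change was -0.03 in sgWdr4-1, 0.06 in sgWdr4-2 and -0.05 in cKO, next to medians of 0.09, -0.03 and -0.20 over all genes. In sgWdr4-1 the flavoprotein subunit Ndufv1 (1.12), the iron-sulfur subunit Ndufs1 (1.03) and Ndufa9 (1.02) were at least 2-fold higher and Ndufc1 (-1.05) lower. These are 3 and 1 of 36, where 16.1% of all genes were 2-fold higher and 10.3% lower, so neither share exceeds that of all genes. Ndufs1 was 2-fold lower in cKO (-1.01), where 8.15% of all genes were. The 4 of these 5 values from sgWdr4-1 rest on the library that stood apart. None of the 36 was 2-fold apart in footprints under sgWdr4-2, where 3.03% of all genes were higher and 4.63% lower. The median mitochondrially encoded subunit had 2.10 times the footprint TPM of the median nuclear subunit in sgWdr4-1, 20.3 times in sgWdr4-2, 32.0 times in WT, 22.6 times in cKO and 17.0 times in ff. In input the same ratio was 21.5, 21.3, 21.1, 23.9 and 26.1.

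Genes that serve mitochondrial expression were read from lists chosen for their function. Over all genes, translation efficiency was at least 2-fold higher for 14.8% and lower for 13.7% in sgWdr4-1, for 3.53% and 4.87% in sgWdr4-2, and for 4.03% and 16.0% in cKO. Of 15 complex I assembly factors tested, translation efficiency was at least 2-fold higher for 1 and lower for 1 in sgWdr4-1, and for 0 in sgWdr4-2 and in cKO, with medians of 0.13, 0.10 and 0.14. Of 20 mitochondrial transcription and RNA-processing genes tested in the iBMDM table, 3 were higher and 1 lower in sgWdr4-1 (median 0.21) and 0 higher and 2 lower in sgWdr4-2 (median -0.14). In cKO, 0 of the 17 tested were higher and 2 lower (median 0.26). Of 11 mitochondrial translation factors, 7 were higher and 0 lower in sgWdr4-1 (median 1.16), where 14.8% of all genes were higher, and none was 2-fold apart in sgWdr4-2 (median 0.14). The 7 rest on the library that stood apart. In cKO 0 of 9 were higher and 1 lower (median -0.45). No gene of these lists was 2-fold apart in the same direction in all 3 comparisons.

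Likeness to the complex I genes was measured as the root-mean-square distance from their mean over 6 log2 changes (input and footprints in each of 3 comparisons) among 6927 genes tested in both tables. In that mean the sgWdr4-1 footprint change was -4.04 and the other changes lay between -0.68 and 0.36. A gene was therefore near mainly when its footprints were also low in the library that stood apart. The 7 members, which make up the mean, lay 0.12 to 0.36 from it and the 6 other mitochondrially encoded mRNAs 0.18 to 0.43. The nearest of the 6914 nuclear genes were Styx, a phosphatase-like protein without catalytic activity (0.50), the endocytic adaptor Epn1 (0.59), Mosmo (0.59), the mitochondrial iron importer Slc25a37 (0.70), the apolipoprotein gene Apoa2 (0.73) and the BMP receptor gene Bmpr1a (0.73). The median nuclear gene lay at 1.76. Styx footprints were 5.73 TPM in sgWdr4-1, 74.3 TPM in sgWdr4-2, 75.5 TPM in WT, 108 TPM in cKO and 53.7 TPM in ff. All 6 of these nuclear genes had sgWdr4-1 footprints between 1.13 and 7.48 TPM, so their values there were low. Apoa2 is also 1 of the 2 hepatocyte markers that reached 5 TPM in every input, and its footprints were 5.06 TPM in sgWdr4-1, 17.7 TPM in sgWdr4-2, 57.7 TPM in WT, 19.6 TPM in cKO and 30.4 TPM in ff.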

How the data were processed

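The authors deposited TPM for 10 libraries in 2 tables, 6 iBMDM and 4 TAM libraries, each normalised separately to a sum of 1000000. Per the submitters' processing notes fastp 0.18.0 and Bowtie2 were used. The genome build, the quantifier and the handling of reads mapping to several places, which matters for mitochondrial sequence with nuclear copies, are not stated in the labels or notes (not given in the sources used here). For 20 symbols with 42 rows the row of highest mean TPM was kept.

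From the deposited TPM, log2(TPM + 1) was computed; the added 1 makes the change of a low gene look smaller. A gene was kept with a mean of at least 5 TPM in input and in footprints, which left 7536 (iBMDM) and 7101 (TAM) genes and all 7 members. Changes were taken within a table. The size rule was 2-fold. limma 3.58.1 in R 4.3.3 compared 2 guide lines with 1 WT line on a log2 scale. It used an expression trend and Benjamini-Hochberg adjustment (threshold 0.05, two-sided). It was tested on simulated data in which all lines varied alike and no library stood apart, so that test does not cover the members' spread between the guides. limma assumes that the lone WT line varies as the guide lines do. Separate cultures or animals are not stated in the labels, so the spread may be technical. TAM had 1 library per genotype and kind and no test. Input and footprint libraries of a line were paired by their shared label. Alternatives were other pseudocounts, filters and rescalings, leaving out a guide, limma without trend and no pairing.

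All members were named. From the other lists the rule took counts and genes 2-fold apart the same way in all 3 comparisons, and the 6 nearest nuclear genes for likeness. Ndufv1, Ndufs1, Ndufa9 and Ndufc1 were named after their values were seen. Members and lists were chosen with earlier results of these data known. Sequences are not shown because the sources used here held no sequence for these genes. Summaries used pandas 2.3.3 with numpy 2.4.6 (Python 3.11.15), and plots matplotlib 3.10.9.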

Additional observations from a re-analysis of the deposited data

Results flagged for a closer look

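Some complex I values pointed one way under both guides and the other way in cKO. The difference between the guide and cKO effects was not tested, since cKO and ff had 1 library each. In translation efficiency this held for 6 of 7 genes, lower under both guides and at 1.10 (mt-Nd1), 0.61 (mt-Nd2), 0.74 (mt-Nd3), 0.004 (mt-Nd4), 0.24 (mt-Nd5) and 0.88 (mt-Nd6) in cKO. In footprints it held for 6 of 7, at 0.74 (mt-Nd1), 0.36 (mt-Nd2), 0.40 (mt-Nd3), 0.15 (mt-Nd4), 0.24 (mt-Nd5) and 0.82 (mt-Nd6) in cKO. The same pattern held in both readouts for mt-Co1, mt-Co2, mt-Co3 and mt-Atp8, but not for mt-Atp6 or mt-Cytb, so it is not particular to complex I. Both guides rest on the same WT libraries, and the share of all genes with this pattern was not computed. mt-Nd4l was lower in both readouts under both guides and in cKO, except that its cKO footprints were at 0.01 after median rescaling. In input RNA it held for 2 of 7, mt-Nd4l at 0.30 and mt-Nd5 at 0.003 in cKO. After median rescaling mt-Nd5 input was at -0.08 in cKO, and at -0.05 after rescaling without mitochondrial, ribosomal protein and histone genes, so the opposite direction then held for mt-Nd4l but not for mt-Nd5.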

How the results depend on the processing

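The 7 members kept a lower median under every alternative in the guide comparison. Leaving out 1 guide gave medians of -3.75 to -0.44 in translation efficiency, -4.03 to -0.58 in footprints and -0.29 to -0.09 in input. With sgWdr4-1 alone 7 members were at least 2-fold lower in translation efficiency, where 13.7% of all genes were, and 7 in footprints, where 10.3% were. With sgWdr4-2 alone these counts were 0, where 4.87% of all genes were, and 1, where 4.63% were. The footprint count under both guides was 1, and after median rescaling it was 0. The median member minus that of the 6 other mitochondrially encoded mRNAs, 0.09 in translation efficiency over both guides, ranged from -0.06 to 0.48, and in footprints from -0.09 to 0.31. Input of mt-Nd4 was -0.02 over both guides 0.04 without replicate 2 (sgWdr4-2) and -0.08 without replicate 1 (sgWdr4-1).

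limma called 0 members under each alternative run. In translation efficiency it called 5 genes in all, 3 with a pseudocount of 5, 0 with a mean of at least 20 TPM and 64 with no filter. With no replicate block (the interaction of kind and genotype, not paired) it called 0, with 104 genes and 0 of 7 members at an unadjusted limma p under 0.05 (members 0.212 to 0.361), against 7 of 7 members when paired. In footprints it called 1 gene, 0 with a pseudocount of 5, with at least 20 TPM and with no filter, 3 with median rescaling, 2 with rescaling without mitochondrial, ribosomal protein and histone genes, and 2 without trend. For cKO, members 2-fold apart in translation efficiency were 1, and 3 and 2 under those rescalings, and in footprints 0, and 1 with median rescaling. The cause of these shifts was not tested. Read depth is unknown, so counting error could not be given.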
